A study of Homo sapiens with 16 samples.

Results

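The genes of Polycomb repressive complex 2 (PRC2) were followed in H9, a widely used line of human embryonic stem cells. The set holds 10 genes of the 60675 identifiers in the count table, chosen by name as subunits of the complex and not by their values. They are the catalytic subunits EZH2 and EZH1, the core subunits SUZ12, EED and RBBP4, and the accessory subunits JARID2, AEBP2, MTF2, PHF1 and PHF19. All 10 passed the filter on low counts, so each was tested in every comparison. The H9 cells carried an EGFP reporter under the REX1 promoter (genotype Rex1-EGFP), and all groups share it. They grew without feeder cells and received 30 to 50 nM of pooled siRNA. The controls were a Luciferase siRNA against Renilla luciferase (n = 2) and an independent siRNA labelled Control (n = 2). The knockdowns were SALL4, VRTN, DSCC1 and SEPHS1 siRNA (n = 3 each), with esiRNA, an enzymatically made pool, for SALL4, DSCC1, SEPHS1 and luciferase and a Dharmacon siRNA for VRTN. Cells were harvested 48 h after SALL4 or VRTN siRNA and 72 h after DSCC1 or SEPHS1 siRNA. No harvest time is given for the controls, so harvest time and knockdown cannot be told apart in any comparison with them.

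PRC2 adds methyl groups to lysine 27 of histone H3, a mark found on silent developmental genes in embryonic stem cells. EZH2 or its paralogue EZH1 carries the active site, and neither works without SUZ12 and EED. The accessory subunits define alternative forms of the complex: JARID2 and AEBP2 occur in PRC2.2, while PHF1, MTF2 and PHF19, the Polycomb-like proteins, occur in PRC2.1 and compete for the same surface of SUZ12.

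Library totals ran from 18597262 to 28662389 counts, and a floor of 3 counts was 0.105 to 0.161 CPM, the count scaled to its library's total, which covers counting error only. The siRNA targets were checked as log2 fold changes against the 4 control libraries. VRTN fell by 2.75 and SEPHS1 fell by 2.75 under their own siRNA, with edgeR adjusted p of 2.04e-16 and 9.09e-15. DSCC1 averaged 0.806 CPM against 3.93 CPM in controls (log2 difference -2.27, edgeR adjusted p = 0.486), and SALL4 averaged 213 CPM against 274 CPM (log2 difference -0.36, edgeR adjusted p = 0.0562). Neither of the last 2 passed the test, although no knockdown library overlapped a control. SEPHS1 also fell by 0.99 on the log2 scale under SALL4 siRNA (edgeR adjusted p = 1.13e-05). Of the 11 pluripotency markers, 10 were detected in every library and ZFP42, the gene of REX1, had no count in any of the 16. The summed pluripotency marker level was 3743 to 3925 CPM under SALL4 siRNA and 4638 to 5360 CPM in controls. DNMT3B and PODXL fell by 1.31 and 0.48 on the log2 scale under SALL4 siRNA (edgeR adjusted p = 1.70e-08 and 0.00930). Without SALL4 replicate 3 these were -1.54 and -0.38 (edgeR adjusted p = 9.46e-12 and 0.0543). Over all 3 SALL4 libraries DNMT3B and PODXL averaged 459 and 1157 CPM, against 1138 and 1619 CPM in controls. Of the 10 markers tested, 6 were lower and 4 higher under SALL4 siRNA. NANOG was higher by 0.55 and POU5F1 by 0.26, neither called (edgeR adjusted p = 0.0542 and 0.234). DPPA4 rose by 0.38 under VRTN siRNA (edgeR adjusted p = 0.0451), a call lost on leaving out any 1 of the 7 libraries (0.35 to 0.42, edgeR adjusted p = 0.0638 to 0.215). The summed mesoderm markers, 7 genes, stood at 164 and 156 CPM in SALL4 replicates 1 and 2, at 66.8 CPM in SALL4 replicate 3 and at 61.9 to 79.0 CPM in controls. Most of the sum was KDR, which rose by 0.91 under SALL4 siRNA (edgeR adjusted p = 0.00743). KDR averaged 115 ± 50.1 CPM (SD, n = 3) there and 60.9 ± 6.65 CPM (n = 4) in controls, and the 2 sides overlapped. Of the 6 mesoderm markers tested, 4 were higher and 2 lower under SALL4 siRNA, with no other call. The 9 fibroblast or stroma markers summed to 799.8 to 1717 CPM under SALL4, 797 to 1209 CPM under VRTN and 1830 to 2071 CPM under control siRNA, most of it COL1A1. COL1A1 fell by 0.82 under SALL4 and by 1.28 under VRTN siRNA (edgeR adjusted p = 0.00498 and 4.64e-05). Without SALL4 replicate 3 the SALL4 value was -0.50 (edgeR adjusted p = 0.0132). Of the 7 of these markers tested, 6 were higher under SALL4 and 4 under VRTN siRNA, without a call. S100A4 fell by 4.26 under SEPHS1 siRNA (edgeR adjusted p = 0.0487), near the floor at 0.0853 CPM against 2.01 CPM in controls. Neuroectoderm, endoderm and trophoblast or amnion markers were low, at 38.6 to 57.0, 2.21 to 11.8 and 1.21 to 3.50 CPM under SALL4 siRNA and 44.6 to 53.6, 5.12 to 9.97 and 4.00 to 5.95 CPM in controls. Of the 4 trophoblast or amnion markers tested, 1 was called lower under SALL4 siRNA. The endoderm markers stood at 13.7 to 22.8 CPM under VRTN siRNA and the trophoblast or amnion markers at 6.75 to 8.70 CPM under SEPHS1 siRNA, above every control. The part of these markers in the results below was not tested. SALL4 replicate 3 was closest to a DSCC1 library and not to its own replicates. The SALL4 results of the members and of some other genes are therefore also given without it. Control libraries numbered 1 were closest to each other, and so were those numbered 2.

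The members differed in level by more than 2 orders of magnitude. On the scale of CPM after TMM normalisation (edgeR's trimmed mean of M values) per kilobase of exon, JARID2 was highest at 47.4 ± 7.92 (SD, n = 16 libraries of 6 groups). RBBP4 followed at 21.2 ± 1.69, PHF1 at 10.1 ± 2.36 and EZH2 at 6.53 ± 1.35. A cluster of 4 genes came next with MTF2 at 2.06 ± 0.662, PHF19 at 1.74 ± 0.383, SUZ12 at 1.72 ± 0.349 and EZH1 at 1.54 ± 0.433. Each differed from its neighbour in this order by less than the SD of either, while MTF2 and EZH1, the ends, differed by more than the SD of EZH1. AEBP2 stood at 0.765 ± 0.330 per kilobase and EED, a core subunit, was lowest in the deposited counts at 0.156 ± 0.126. Whether the counting missed reads of EED was not tested. The exon length is the union of all annotated exons, which understates the level of a gene with many rarely used exons.

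**Figure D1:**
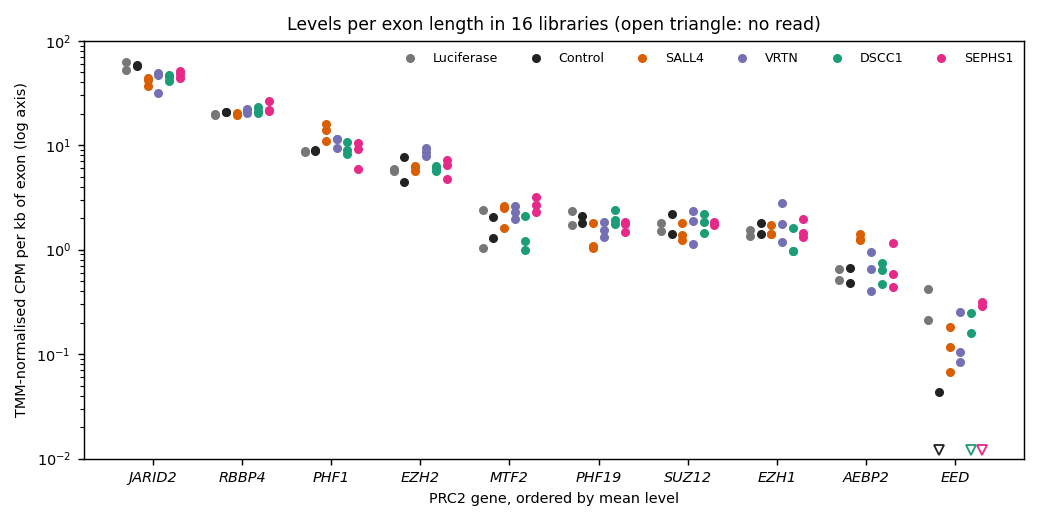
Level of each PRC2 gene in each of 16 libraries, as TMM-normalised CPM per kilobase of exon on a log axis, with points coloured by siRNA and open triangles for libraries without a read. JARID2 leads at a mean of 47.4, a cluster of MTF2, PHF19, SUZ12 and EZH1 overlaps, and EED is lowest with 3 libraries at 0 counts.

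The 2 members that passed a test below, JARID2 and PHF1, both lie on the short arm of chromosome 6, at chr6:15246296-15522040 and chr6:33410399-33416453 on the plus strand (GRCh38, GENCODE 29 gene bounds). Their upstream sequence is shown because these are the transcripts that moved. Each run is the 250 bases before a RefSeq start (GRCh38.p14, plus strand), at chr6:15245819-15246068 for JARID2 and chr6:33410764-33411013 for PHF1. Capitals mark CpG dinucleotides, of which the JARID2 window holds 22 and the PHF1 window 15.
JARID2: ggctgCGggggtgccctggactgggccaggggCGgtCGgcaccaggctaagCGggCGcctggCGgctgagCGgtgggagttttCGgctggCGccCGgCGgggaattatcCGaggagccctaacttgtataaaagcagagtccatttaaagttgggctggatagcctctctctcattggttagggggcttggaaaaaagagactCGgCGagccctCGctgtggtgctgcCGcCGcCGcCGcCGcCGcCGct
PHF1: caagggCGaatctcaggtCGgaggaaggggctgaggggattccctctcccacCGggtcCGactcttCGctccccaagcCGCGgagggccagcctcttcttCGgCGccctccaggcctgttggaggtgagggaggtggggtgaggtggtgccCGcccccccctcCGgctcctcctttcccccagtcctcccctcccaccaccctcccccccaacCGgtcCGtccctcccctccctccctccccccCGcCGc
The median over 35116 RefSeq windows of that length was 11 CpG and 58% G or C. The JARID2 window had 65.6% G or C and the PHF1 window 72.4%. JARID2 has another RefSeq start with 34 CpG and 74.8% G or C in its window.

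Over the 14 windows of the 10 members, G or C content ran from 51.2% at EED to 79.6% at EZH2. Fixed motifs were searched on both strands. The E2F site, bound by the cell cycle factors E2F, was searched as TTTCCCGC or TTTGGCGC and was found in 2 windows, at SUZ12 and PHF19, against 1.93% of all windows. The 30 bases around each match follow on the gene's strand, with the match in capitals, because SUZ12 and PHF19 are the members that carry this motif.
SUZ12, 189 bases before the start: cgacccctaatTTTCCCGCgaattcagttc
PHF19, 152 bases before the start: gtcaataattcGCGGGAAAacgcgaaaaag
No window held the octamer ATTTGCAT (1.63% of all windows), known as the site of POU5F1-type factors. The A/T-rich motif ATATT was found in the EZH1 window only among the 14, against 21.4% of all windows. A match is a description of letters in these windows and was not tested for binding.

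The comparisons with controls asked which members moved under each siRNA, although SALL4 and DSCC1 were not called lower under their own siRNA. Under SALL4 siRNA, PHF1 rose and JARID2 fell, and the other 8 members did not pass the test. That is 2 of 10 members, against 2.98% of all 19772 genes tested, of which 1.85% were called higher and 1.13% lower. Among genes of at least 4 log2 CPM, a level that EZH2, PHF1, RBBP4 and JARID2 reach, 7.71% were called. No member was called under VRTN siRNA (1.13% of all genes), DSCC1 siRNA (0.0455%) or SEPHS1 siRNA (1.53%). At an unadjusted edgeR p under 0.05 there were 4 members under SALL4, 2 under VRTN, 1 under DSCC1 and 2 under SEPHS1 siRNA, where 13.1%, 9.40%, 5.84% and 12.8% of all genes had such a p. Knockdown and control libraries did not overlap for 3 members under SALL4 siRNA (13.7% of all genes) and 3 under VRTN siRNA (12%). They did not overlap for 1 member under DSCC1 siRNA (9.1%) and 2 under SEPHS1 siRNA (13%), which is a share near that of all genes for DSCC1. The median log2 fold change of the 10 members was 0.01 under SALL4 siRNA and 0.02 over all genes, and under VRTN siRNA it was 0.25 and 0.02. Without EED, which is near the floor, the medians of the other 9 members were -0.0074 and 0.21. These 4 comparisons share the same 4 control libraries and are not independent. The p-values measure the spread between these samples, which the submitters describe as biological replicates.

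**Figure D2:**
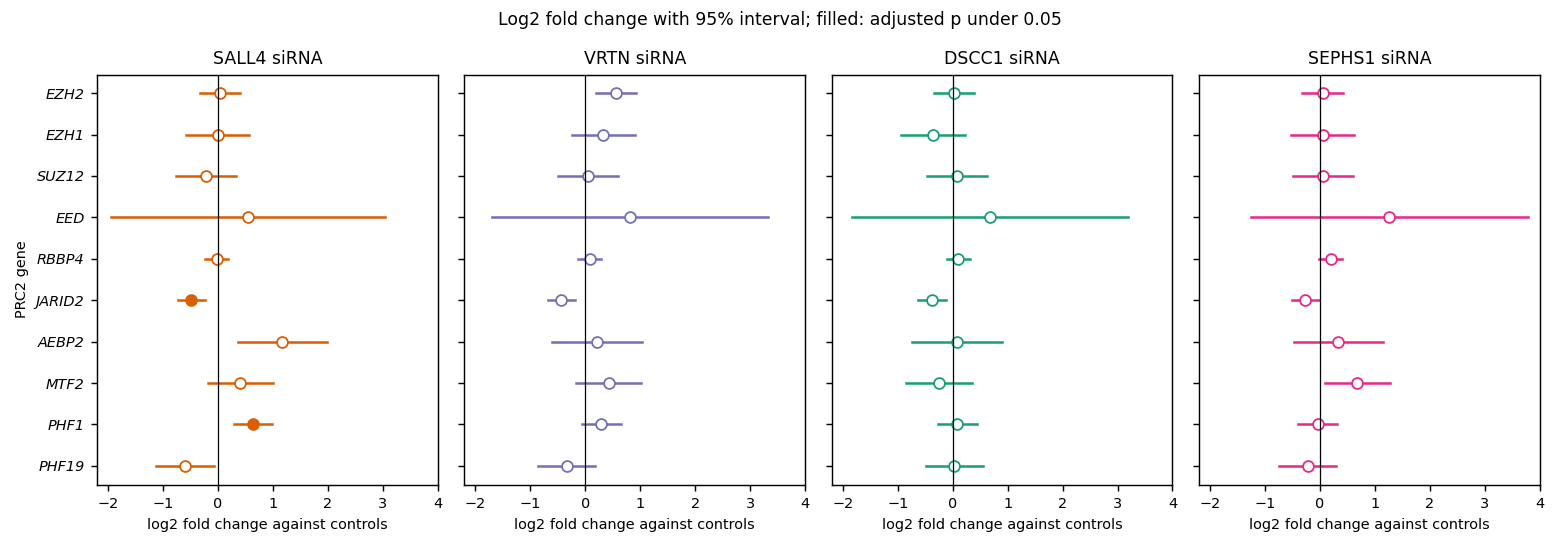
Log2 fold change of each PRC2 gene under each siRNA against the 4 control libraries, with 95% intervals from edgeR; filled points passed an adjusted p of 0.05. Only JARID2 (-0.49) and PHF1 (0.63) under SALL4 siRNA are filled, and the EED intervals span more than 4 log2 units.

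EZH2, the main methyltransferase of proliferating cells, lies at chr7:148807383-148884321 (minus strand). Its level in controls was 26.8 and 25.5 CPM with Luciferase siRNA and 34.9 and 20.2 CPM with Control siRNA. Under VRTN siRNA it was 39.3, 42.6 and 36.0 CPM, above every control library. Under SALL4 siRNA it was 28.6, 28.2 and 25.4 CPM, inside the control range. It was 28.8, 27.6 and 25.5 CPM under DSCC1 siRNA and 29.1, 32.5 and 21.5 CPM under SEPHS1 siRNA. The log2 fold change under VRTN siRNA was 0.55 ± 0.18 (SE), a 1.46-fold difference higher in 3 of 3 libraries, and did not pass the test (edgeR adjusted p = 0.167). It passed when Control replicate 1, the highest control, was left out (log2 difference 0.77, edgeR adjusted p = 0.0244). Without Control replicate 2, the lowest control, the difference was 0.38 (edgeR adjusted p = 0.772), and against the controls numbered 1 alone it was 0.36 (edgeR adjusted p = 0.953). The other 3 differences lay between 0.02 and 0.05, and under SALL4 siRNA the 95% interval was -0.34 to 0.40. The SALL4 difference was 0.094 without SALL4 replicate 3.

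EZH1, the paralogue with weaker methyltransferase activity that is prominent in resting cells, lies at chr17:42700275-42745049 (minus strand). It ran from 9.35 to 12.5 CPM in controls. The VRTN libraries held both a high value of 19.6 CPM and a low one of 8.30 CPM, while 2 of the 3 DSCC1 libraries, at 6.80 and 6.76 CPM, lay below the controls. No EZH1 comparison passed the test, with log2 differences of -0.01 ± 0.28 (SE) under SALL4, 0.33 ± 0.28 under VRTN, -0.36 ± 0.29 under DSCC1 and 0.05 ± 0.28 under SEPHS1 siRNA. The SALL4 difference was -0.090 without SALL4 replicate 3. The ratio of EZH2 to EZH1 counts within a library does not depend on scaling. It was 2.04 to 2.79 in controls, 2.13 to 2.90 under SALL4, 2.17 to 4.33 under VRTN, 2.56 to 4.05 under DSCC1 and 2.13 to 3.21 under SEPHS1 siRNA. The mean log2 ratio was above the controls by 0.45 under DSCC1 siRNA (two-sided exact permutation p = 0.114) and by 0.32 under VRTN siRNA (exact permutation p = 0.257). For SALL4 and SEPHS1 siRNA the differences were 0.06 and 0.02 (exact permutation p = 0.657 and 0.943). None of the 4 passed, where the smallest p that 3 libraries against 4 can give in this test is 0.0286. A lone siRNA at that p could not pass after adjustment over the 4, so the test cannot show a change for a single siRNA. Adjusted over the 4 by Benjamini-Hochberg, the exact permutation p ran from 0.457 to 0.943.

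SUZ12 holds the complex together and binds the accessory subunits. It lies at chr17:31937018-32001045 (plus strand). Its level was 9.87 and 11.8 CPM with Luciferase siRNA and 9.21 and 14.5 CPM with Control siRNA. All 3 SEPHS1 libraries stood between 11.3 and 12.0 CPM, while the VRTN libraries ran from 7.36 to 15.3 CPM. No comparison passed the test, and the largest difference was -0.23 ± 0.27 (SE) on the log2 scale under SALL4 siRNA, or -0.10 without SALL4 replicate 3. The pseudogene SUZ12P1 collected 2254 counts in the 16 libraries, 52.3% of the 4306 counts of SUZ12. In GENCODE 29 transcripts 3.82% of the 80-base windows of SUZ12, the read length, also occur in SUZ12P1, and how reads shared between copies were counted is not given in the sources used here. SUZ12P1 itself averaged 7.84 CPM under DSCC1 siRNA and 3.93 CPM in controls, a log2 difference of 1.00 ± 0.41 (SE, edgeR adjusted p = 0.784).

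EED binds the trimethylated mark and stimulates the enzyme. It lies at chr11:86244544-86278813 (plus strand) and was near the limit of detection, with 413 counts in all 16 libraries together. The Luciferase libraries held 63 and 37 counts and the Control libraries 0 and 9. Counts were 24, 34 and 11 under SALL4, 44, 12 and 18 under VRTN, 24, 44 and 0 under DSCC1 and 45, 48 and 0 under SEPHS1 siRNA. Libraries of 1 group thus ran from 0 to above 40 counts with DSCC1 or SEPHS1 siRNA. Against all 4 controls the log2 differences were 0.54 to 1.26 with SEs of 1.22 to 1.24, although the mean CPM was below that of the controls under SALL4, VRTN and DSCC1 siRNA. Against Luciferase siRNA alone all 4 differences were negative, from -1.37 to -0.65. The SALL4 difference from all controls was 0.84 ± 1.34 (SE) without SALL4 replicate 3. No direction can be read for EED at these counts. Control replicate 1, the deepest library at 28662389 counts, held 0 EED counts, and Luciferase replicate 1, the shallowest at 18597262, held 63. The part of library depth in the EED counts was not tested. An exon of EED overlaps another annotated gene by 66 bases on the same strand, and that gene is absent from the deposited counts.

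RBBP4, a histone chaperone that PRC2 shares with other chromatin complexes, lies at chr1:32651142-32686211 (plus strand). It was the steadiest member, at 186 and 187 CPM with Luciferase siRNA and 198 and 195 CPM with Control siRNA. The SALL4 libraries read 184, 189 and 191 CPM, a log2 difference of -0.02 ± 0.10 (SE) with a 95% interval of -0.24 to 0.19, and -0.024 without SALL4 replicate 3. Under SEPHS1 siRNA it was 249, 204 and 203 CPM, above every control. That difference was 0.19 ± 0.10 (SE) and did not pass the test (edgeR adjusted p = 0.433). The VRTN and DSCC1 differences were 0.08 ± 0.10 and 0.10 ± 0.10. Its transcripts share 16.4% of their 80-base windows with other genes, mostly with SYNC, which overlaps it on the opposite strand and had 12 counts in all, and the pseudogene RBBP4P2 held 8.44% of its count.

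JARID2, which helps bring PRC2 to chromatin and binds ubiquitinated histone H2A, is the gene whose CpG-rich upstream sequence is printed above. Its level in controls was 373 and 313 CPM with Luciferase siRNA and 347 and 352 CPM with Control siRNA. Under SALL4 siRNA it was 253, 265 and 223 CPM. Under VRTN siRNA it was 297, 282 and 188 CPM. These 6 libraries from 48 h cells all lay below the lowest control. At 72 h the levels were 272, 280.0 and 249 CPM under DSCC1 siRNA. Under SEPHS1 siRNA they were 309, 289.8 and 266 CPM. All 12 knockdown libraries were thus below all 4 controls, a pattern shown by 28 of the 19772 genes tested (0.142%), while 53 genes (0.268%) had all 12 above. In each knockdown group replicate 3 was the lowest, and no control library is numbered 3. With replicate number as a block the log2 differences were -0.40 under SALL4, -0.36 under VRTN, -0.28 under DSCC1 and -0.17 under SEPHS1 siRNA. Of these only the SALL4 value was called (edgeR adjusted p = 0.0260).

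JARID2 fell by 0.49 ± 0.12 (SE) on the log2 scale under SALL4 siRNA, to 71.3% of the control mean (edgeR adjusted p = 0.0205). The differences under the other siRNAs were smaller and did not pass the test. They were -0.44 ± 0.12 under VRTN (edgeR adjusted p = 0.0797), -0.37 ± 0.12 under DSCC1 (edgeR adjusted p = 0.543) and -0.26 ± 0.12 under SEPHS1 siRNA (edgeR adjusted p = 0.358). A difference between knockdowns harvested at the same time was not shown. SALL4 against VRTN siRNA gave -0.05 ± 0.13 with a 95% interval of -0.32 to 0.21 (edgeR adjusted p = 0.965), and DSCC1 against SEPHS1 siRNA -0.11 ± 0.13 with an interval of -0.38 to 0.16 (edgeR adjusted p = 0.865). Without SALL4 replicate 3 the SALL4 difference was -0.41 (edgeR adjusted p = 0.0700), and without SALL4 replicate 1 it was -0.50 (edgeR adjusted p = 0.0625). Without SALL4 replicate 2 it was -0.53 (edgeR adjusted p = 0.0528). With either control siRNA alone it also missed the threshold (edgeR adjusted p = 0.118 for Luciferase and 0.0805 for Control), at -0.48 and -0.50. The VRTN difference rests in part on VRTN replicate 3 and was -0.26 without it (edgeR adjusted p = 0.570). DESeq2 called JARID2 in VRTN cells (adjusted p = 0.0214), as did edgeR without Luciferase replicate 2 (adjusted p = 0.0192). The pluripotency marker sum was also lower under SALL4 siRNA, where DNMT3B and PODXL fell while NANOG and POU5F1 were higher without a call. The part of that sum in the JARID2 result was not tested. Under VRTN siRNA the sum was 4975 to 5371 CPM, within or just above the control range. In these bulk samples, fewer cells of a type and less RNA per cell cannot be told apart.

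**Figure D3:**
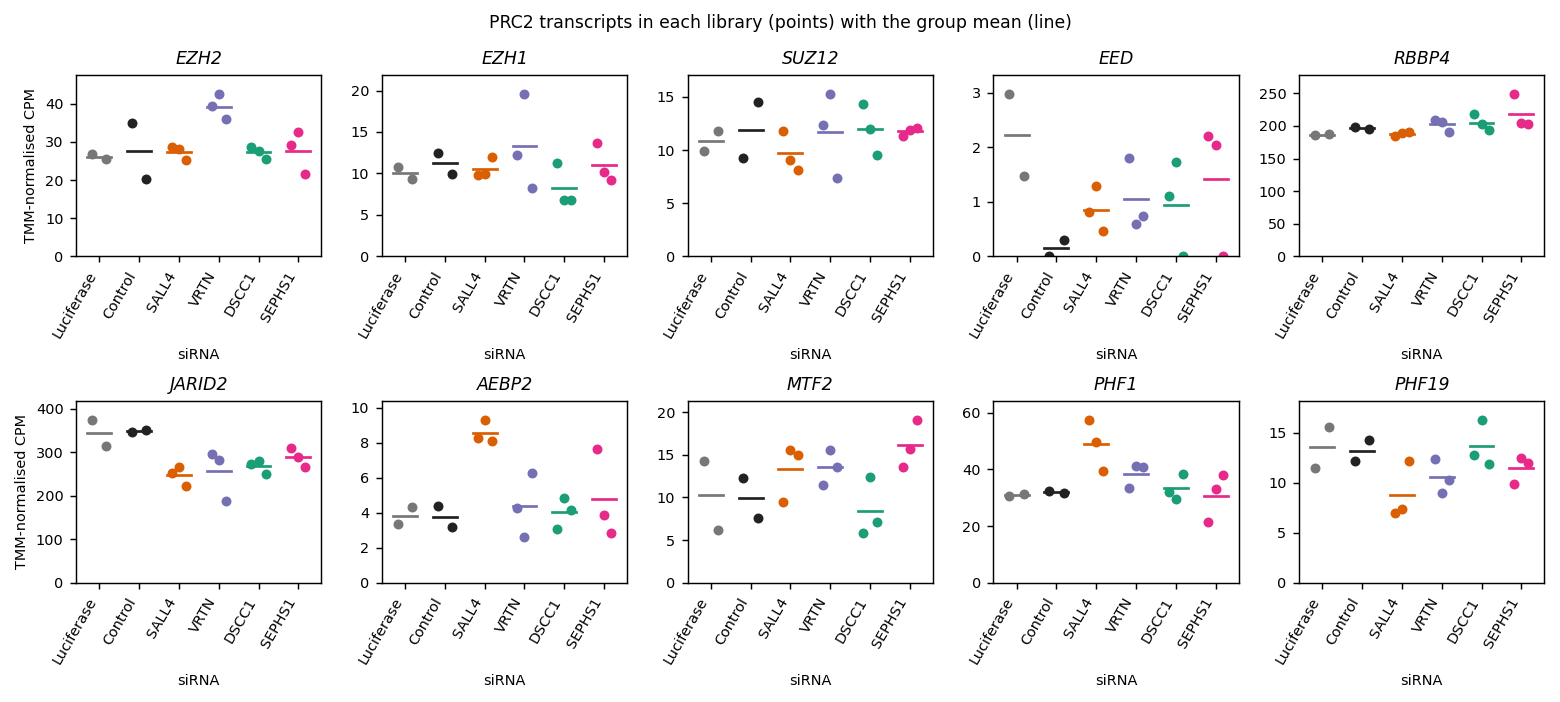
TMM-normalised CPM of the 10 PRC2 genes in each library (points) with the group mean (line), 1 panel per gene, each with a linear axis from 0. The 12 knockdown libraries of JARID2 lie between 188 and 309 CPM, below the 4 controls at 313 to 373 CPM, and PHF1 is raised in the 3 SALL4 libraries.

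AEBP2, the zinc finger partner of JARID2 in PRC2.2, lies at chr12:19404045-19720801 (plus strand). Its level was 3.35 and 4.32 CPM with Luciferase siRNA and 4.36 and 3.16 CPM with Control siRNA. Under SALL4 siRNA it was 8.27, 9.28 and 8.09 CPM, so the 2 sides did not overlap. The difference was 1.17 ± 0.40 (SE) on the log2 scale, a 2.25-fold difference, and did not pass the test (edgeR adjusted p = 0.120). Over the alternatives with all SALL4 libraries its adjusted p ran from 0.0601 to 0.489. Without SALL4 replicate 3 the difference was 1.22 (edgeR adjusted p = 0.132). Under the other siRNAs the libraries overlapped the controls, with single high values of 6.29 CPM in VRTN replicate 3 and 7.64 CPM in SEPHS1 replicate 1. SALL4 against VRTN siRNA, both harvested at 48 h, gave 0.95 ± 0.43 (SE, edgeR adjusted p = 0.340).

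PHF1, a Polycomb-like protein that reads methylated lysine 36 of histone H3, stood at 30.8 and 31.3 CPM with Luciferase siRNA and 32.5 and 31.7 CPM with Control siRNA. The 4 controls lay within 2 CPM of each other. Under SALL4 siRNA it was 57.3, 49.8 and 39.5 CPM. It was 33.5, 41.3 and 40.8 CPM under VRTN siRNA, so these 6 libraries lay above every control. Under DSCC1 siRNA it was 32.0, 29.7 and 38.3 CPM, and under SEPHS1 siRNA 21.4, 32.9 and 38.0 CPM, on both sides of the controls.

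PHF1 rose by 0.63 ± 0.17 (SE) on the log2 scale under SALL4 siRNA, to 1.55-fold of controls (edgeR adjusted p = 0.0359). The VRTN difference of 0.29 ± 0.17 did not pass the test (edgeR adjusted p = 0.624). SALL4 against VRTN siRNA gave 0.34 ± 0.19 with a 95% interval of -0.03 to 0.72 (edgeR adjusted p = 0.456), so a difference between these siRNAs was not shown. Without SALL4 replicate 3, the library with the lowest PHF1 level of the group, the rise was 0.78 (edgeR adjusted p = 0.00599). Without SALL4 replicate 1 it was 0.50 (edgeR adjusted p = 0.270) and without SALL4 replicate 2 it was 0.63 (edgeR adjusted p = 0.126). With Luciferase or Control siRNA alone as the control it missed the threshold at 0.66 and 0.61 (edgeR adjusted p = 0.158 and 0.192). An exon of PHF1 overlaps CUTA by 12 bases on the opposite strand, and CUTA, with 47742 counts, differed by 0.11 ± 0.11 (SE, edgeR adjusted p = 0.780) under SALL4 siRNA.

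MTF2, a Polycomb-like protein that binds unmethylated CpG-rich DNA, lies at chr1:93079235-93139081 (plus strand). The controls were split by replicate number: replicate 1 gave 14.3 CPM with Luciferase and 12.3 CPM with Control siRNA, and replicate 2 gave 6.16 and 7.62 CPM. Under SEPHS1 siRNA it was 13.6, 15.7 and 19.04 CPM, and under DSCC1 siRNA, also harvested at 72 h, 5.83, 12.4 and 7.13 CPM. These 2 groups did not overlap, and the difference of DSCC1 from SEPHS1 siRNA was -0.93 ± 0.32 (SE, edgeR adjusted p = 0.277), where 0.268% of all genes were called and 14% did not overlap. SEPHS1 against controls gave 0.68 ± 0.29 (edgeR adjusted p = 0.317), and the value was 0.28 against the controls numbered 1 and 1.23 against those numbered 2. The differences under SALL4 and VRTN siRNA were 0.40 ± 0.29 and 0.43 ± 0.29, and the SALL4 value was 0.32 without SALL4 replicate 3.

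PHF19, the Polycomb-like protein whose upstream window holds an E2F match, lies at chr9:120855652-120894896 (minus strand). Its level was 11.5 and 15.6 CPM with Luciferase siRNA and 12.2 and 14.3 CPM with Control siRNA. Under SALL4 siRNA it was 6.94, 7.34 and 12.2 CPM, with replicate 3 inside the control range. The difference was -0.60 ± 0.26 (SE, edgeR adjusted p = 0.282), and -0.89 without SALL4 replicate 3 (edgeR adjusted p = 0.0625). The other siRNAs gave -0.34 ± 0.25 under VRTN, 0.03 ± 0.25 under DSCC1 and -0.22 ± 0.25 under SEPHS1. The 3 Polycomb-like genes thus gave 0.63, 0.40 and -0.60 under SALL4 siRNA for PHF1, MTF2 and PHF19, and only PHF1 passed the test.

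Between knockdowns harvested at the same time no member passed the test. For SALL4 against VRTN siRNA, where 2.44% of all genes were called, 3 members did not overlap (16.2% of all genes): EZH2, AEBP2 and RBBP4. EZH2 was lower by 0.52 ± 0.19 (SE) on the log2 scale with SALL4 siRNA (edgeR adjusted p = 0.189), and RBBP4 differed by -0.10 ± 0.11. Between the Control and Luciferase siRNAs no gene of 19772 was called by edgeR or DESeq2, and 211 had an unadjusted p under 0.05. The members gave 0 calls (0% of all genes) and 3 did not overlap (28.3%), with 2 libraries on each side.

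The 5 other PRC2 subunits and cofactors gave no call in any of the 4 comparisons with controls. Over the 4 of them other than EZHIP, which is near the floor, the median log2 fold changes were 0.61, 0.36, 0.13 and 0.044 under SALL4, VRTN, DSCC1 and SEPHS1 siRNA, where those of all genes lay between -0.02 and 0.02. Between the Control and Luciferase siRNAs the median of the same 4 genes was 0.77, larger than under any knockdown. RBBP7, the alternative to RBBP4, averaged 24.0 ± 2.61 CPM (SD, n = 3) under SEPHS1 siRNA and 16.3 ± 1.61 CPM (n = 4) in controls, a log2 difference of 0.56 ± 0.20 (SE, edgeR adjusted p = 0.200). EPOP, a PRC2.1 subunit that binds elongin, averaged 1.65 CPM under DSCC1 siRNA and 4.57 CPM in controls (log2 difference -1.45 ± 0.61, edgeR adjusted p = 0.806). LCOR, whose locus also encodes a PRC2.1 subunit, averaged 4.11 CPM under SALL4 siRNA and 2.14 CPM in controls (log2 difference 1.06 ± 0.55, edgeR adjusted p = 0.425). EZHIP, an inhibitor of the enzyme, averaged 0.0236 CPM in controls and 0 to 0.700 CPM in the knockdowns, near the floor, and no fold is given.

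PRC1, the complex that ubiquitinates histone H2A and works alongside PRC2, was represented by 26 genes, all tested. Under SALL4 siRNA 2 fell and none rose, and the median was -0.02. The share called was 7.69%, against 2.98% of all genes and 7.71% of those of at least 4 log2 CPM. BCOR, the scaffold of a variant PRC1, fell by 0.47 ± 0.13 (SE, edgeR adjusted p = 0.0346), and MGA, of another variant, fell by 0.76 ± 0.22 (edgeR adjusted p = 0.0470). BCOR was at -0.55 (edgeR adjusted p = 0.0108) and MGA at -0.60 (edgeR adjusted p = 0.157) without SALL4 replicate 3. The BCOR call was also lost without SALL4 replicate 1 or 2, Luciferase replicate 2 or either Control replicate (edgeR adjusted p = 0.0541 to 0.281), and the MGA call without SALL4 replicate 1, Luciferase replicate 1 or Control replicate 2 (edgeR adjusted p = 0.152 to 0.312). Under VRTN siRNA 1 fell, KDM2B, which brings a variant PRC1 to CpG islands, by 0.69 ± 0.13 (edgeR adjusted p = 0.00238), with a median of 0.09. This share was 3.85%, against 1.13% of all genes and 3.26% of those of at least 4 log2 CPM. No PRC1 gene was called under DSCC1 or SEPHS1 siRNA, with medians of -0.01 and -0.06.

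The next list held 6 genes of the H3K27 demethylases and the H2A deubiquitinase complex, which remove the marks of PRC2 and PRC1. None was called under any siRNA, with medians of 0.07, 0.02, -0.09 and -0.20 for SALL4, VRTN, DSCC1 and SEPHS1. KDM6B, an inducible H3K27 demethylase, averaged 19.2 ± 6.90 CPM under VRTN siRNA and 9.56 ± 3.12 CPM in controls (log2 difference 1.02 ± 0.29, edgeR adjusted p = 0.0762). It differed by 0.82 ± 0.28 under SALL4 siRNA (edgeR adjusted p = 0.137) and by -0.72 ± 0.30 under SEPHS1 siRNA (edgeR adjusted p = 0.289). KDM6A, its relative on the X chromosome, stayed between -0.04 and 0.08. Of 12 genes listed for the trithorax complexes that write the opposing H3K4 mark, 1 fell, KMT2D under SEPHS1 siRNA by 0.59 ± 0.15 (edgeR adjusted p = 0.0334). That is 8.33% of the list, against 1.53% of all genes and 3.94% of those of at least 4 log2 CPM. The medians were -0.02, -0.02, 0.01 and -0.15. Without SEPHS1 replicate 2 or 3 the KMT2D call was lost (-0.51 and -0.52, edgeR adjusted p = 0.166 and 0.192).

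The developmental regulators that PRC2 is known to hold silent in embryonic stem cells were followed through 114 genes of homeobox and related families. Of these, 62 passed the filter on low counts and 52 did not. The share of the 62 called was 1.61% under SALL4 and 3.23% under SEPHS1 siRNA, against 2.98% and 1.53% of all genes. Their median log2 fold change was 1.28 under SALL4, 0.06 under VRTN, -0.34 under DSCC1 and -0.07 under SEPHS1 siRNA. The filter also keeps genes with counts in the libraries of only 1 group, so these medians give no direction for the list and were not tested. Under SALL4 siRNA 1 rose and none fell: SIX2, a homeobox factor of kidney progenitors, averaged 11.6 ± 1.17 CPM (SD, n = 3) against 2.90 ± 0.809 CPM in controls, a log2 rise of 2.003 ± 0.45 (SE, edgeR adjusted p = 0.00804). Without SALL4 replicate 3 it was 1.93 (edgeR adjusted p = 0.0244), and without Control replicate 2 it was 1.82 and missed the threshold (edgeR adjusted p = 0.0516). The summed level of all 114 was 365 and 329 CPM in SALL4 replicates 1 and 2, but 192 CPM in replicate 3, against 197 to 236 CPM in controls. The number of the 114 without a read was 48, 60 and 73 in those 3 libraries and 65 to 71 in controls. SALL4 replicate 3 was thus just outside the control range on both measures, with a lower sum and more genes without a read. A link of either measure to the level of a PRC2 member was not tested. Under SEPHS1 siRNA 2 fell. EMX1, a forebrain factor, fell by 1.88 ± 0.41 (edgeR adjusted p = 0.0108). NKX2-5, a heart factor, fell by 1.098 ± 0.28 (edgeR adjusted p = 0.0348). The EMX1 call was lost without SEPHS1 replicate 2 (-1.58, edgeR adjusted p = 0.0831). The NKX2-5 call was lost without any 1 SEPHS1 library or Luciferase replicate 1 (edgeR adjusted p = 0.0605 to 0.152). The sums were 160 to 189 CPM there, 187 to 203 CPM under DSCC1 and 176 to 255 CPM under VRTN siRNA, where no gene of this list was called.

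**Figure D4:**
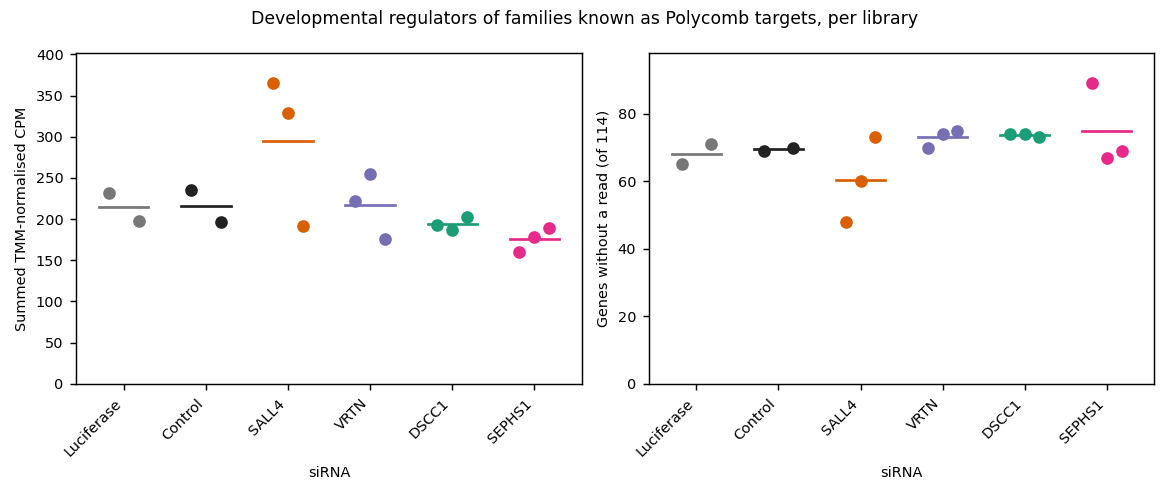
Summed TMM-normalised CPM of 114 developmental regulator genes (left) and number of them without a read (right) in each library, with group means as lines. SALL4 replicates 1 and 2 have the highest sums (365 and 329 CPM) and the fewest silent genes (48 and 60), and SALL4 replicate 3 lies near the controls.

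Proliferation genes were followed because EZH2 and EED are known to be regulated by E2F factors. Of 30 genes, 2 fell under SALL4 siRNA, MCM5 by 0.57 ± 0.14 (SE, edgeR adjusted p = 0.0166) and RRM2 by 0.49 ± 0.13 (edgeR adjusted p = 0.0377), both of DNA replication. That is 6.67% of the list, against 2.98% of all genes and 7.71% of those of at least 4 log2 CPM. Leaving out SALL4 replicate 3, MCM5 was at -0.83 and RRM2 at -0.70 (edgeR adjusted p = 5.89e-05 and 0.000605). Both calls were lost without SALL4 replicate 1 (edgeR adjusted p = 0.170 for MCM5 and 0.287 for RRM2) or replicate 2 (0.180 and 0.275), and that of RRM2 also without Luciferase or Control replicate 2 (edgeR adjusted p = 0.137 and 0.0621). The summed level of the 30 was 2074, 2178 and 2511 CPM in the SALL4 libraries and 2478 to 2668 CPM in controls. The median was -0.19 under SALL4, -0.07 under VRTN, 0.01 under DSCC1 and 0.00280 under SEPHS1 siRNA, and no gene was called under the last 3. EZH2 differed by 0.03 under SALL4 siRNA and by 0.55 under VRTN siRNA, without passing the test in either.

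The genes most like JARID2 over the 16 libraries, among 5638 others of at least 4 log2 CPM on average, were AKAP12 (Pearson r = 0.896), MCAM (0.867) and FADS1 (0.854). For EZH2 they were DUSP6 (0.793), COL2A1 (0.773) and CNDP2 (0.764). These values describe log2 CPM over libraries that share their groups, depth and controls.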

How the data were processed

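Polyadenylated RNA of 16 H9 samples in 6 groups was sequenced as 80 bp single-end reads with the Lexogen SENSE kit, per the labels' protocols. The deposited table holds raw counts per gene in whole numbers, which the authors made against GRCh38 with STAR 2.4.0.1 and HTSeq 0.9.1, per the submitters' processing notes. The annotation release, the strand setting and the treatment of reads shared between copies are not given in the sources used here. Of the identifiers, 33486 had no count. Symbols came from a gene name table (56558) and GENCODE 29 (497), and 3620 stayed unnamed.

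Counts were filtered with filterByExpr, which left 19772 genes and removed 40903, scaled with TMM and tested with edgeR 4.0.16 (quasi-likelihood, R 4.3.3) in 1 design with 6 groups. A call is a Benjamini-Hochberg adjusted p under 0.05 over all genes tested, and rose and fell are used only of calls. The contrast for a knockdown subtracted the average of both control groups' coefficients. SEs were derived from the fold change and the F statistic. CPM values are TMM-normalised. The exact permutation p is the share of the 35 arrangements with an absolute mean difference at least as large, so its smallest value is lower than the one noted when the test was planned. The pipeline was tested on simulated data.

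The members, gene lists and markers were chosen with earlier results of these data known. All members are named in every comparison, and from each list at most 3 called genes with the smallest p per knockdown, besides RBBP7, EPOP, LCOR, EZHIP, KDM6A and KDM6B. The trophoblast or amnion marker called under SALL4 siRNA is counted but not named. Other named genes were chosen as examples after their values were seen. Upstream windows are from RefSeq (GRCh38.p14), where all 10 members matched by symbol. Alternatives were DESeq2 1.42.0, its size factors in edgeR, no filter, a stricter filter of 1 CPM in 3 libraries, a replicate block, subsets of the controls, only the groups compared, and leaving out each library.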

Additional observations from a re-analysis of the deposited data

How the results depend on the processing

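Low counts limit EED most, with 413 counts in 16 libraries, and the 2 libraries of each control siRNA limit every comparison. Of the single-member values, 423 kept direction and side of the threshold outside the leave-one-out fits and 286 within them, 27 and 39 changed sign without being called, 8 and 7 lost the call and 2 and 2 gained it. No member was called under DSCC1 or SEPHS1 siRNA, between knockdowns, or between control siRNAs in any alternative run.

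Under SALL4 siRNA the number of members called was 0 with Luciferase alone, 0 with Control alone, 1 with the controls numbered 1, 0 with those numbered 2 and 1 (JARID2) with only the groups compared, against 2. Leaving out 1 library gave 0 to 2: 0 without SALL4 replicate 1 or 2, 1 (PHF1) without SALL4 replicate 3, and 1 (JARID2) without Luciferase replicate 2 or Control replicate 2. Under VRTN siRNA it was 1 (JARID2) with no filter and 1 (JARID2) with DESeq2, and 0 to 1 on leaving out a library (JARID2 without Luciferase replicate 2, EZH2 without Control replicate 1).

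Same-numbered libraries deviated from their group means with correlations of -0.33 to 0.38 (36 pairs), and the labels name no shared batch, so the numbers were not taken to pair the samples. Between the 2 control siRNAs same-numbered libraries did deviate together (r = 0.37). So did replicate 3 of SALL4 and replicate 3 of VRTN siRNA, the highest of these values (r = 0.38). The lowest was between replicate 2 of Luciferase and replicate 2 of SALL4 siRNA (r = -0.33). With the replicate block the members called stayed 2 under SALL4 siRNA (JARID2 -0.40, PHF1 0.60) and 0 elsewhere, and calls over all genes went from 590 to 820 for SALL4, 223 to 283 for VRTN, 9 to 15 for DSCC1, 303 to 270 for SEPHS1, 482 to 686 for SALL4 against VRTN and 53 to 147 for DSCC1 against SEPHS1. EZH1 and RBBP4 under SALL4 siRNA turned to 0.13 and 0.0068 with the block and PHF19 under DSCC1 siRNA to -0.0079.

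Sign changes of uncalled log2 values in other fits were as follows, and the cause was not tested. With DESeq2 size factors the values were EZH1 0.0069 under SALL4 siRNA. With DESeq2 the values were EZH1 0.0069 under SALL4 siRNA. With Luciferase alone the values were EZH1 0.072, EED -1.37 and RBBP4 0.014 under SALL4 siRNA, EED -1.09 under VRTN siRNA, EED -1.23 under DSCC1 siRNA, EED -0.65 under SEPHS1 siRNA. With Control alone the values were EZH2 -0.0097 under SALL4 siRNA, SUZ12 -0.023 under VRTN siRNA, EZH2 -0.015 under DSCC1 siRNA, EZH1 -0.029 and SUZ12 -0.013 under SEPHS1 siRNA. With the controls numbered 1 the values were EZH2 -0.16 and SUZ12 0.022 under SALL4 siRNA, EZH2 -0.16 under DSCC1 siRNA, EZH1 -0.078 and EZH2 -0.14 under SEPHS1 siRNA. With the controls numbered 2 the values were EZH1 0.13 under SALL4 siRNA, SUZ12 -0.16 under VRTN siRNA, SUZ12 -0.13, MTF2 0.31 and PHF19 -0.13 under DSCC1 siRNA, SUZ12 -0.15 under SEPHS1 siRNA.

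On leaving out each library, the ranges that crossed 0 were these. For SALL4 siRNA against controls, EZH1 ran from -0.090 to 0.080 and EZH2 from -0.14 to 0.25. For VRTN siRNA against controls, EZH1 ran from -0.052 to 0.58, SUZ12 from -0.20 to 0.29 and AEBP2 from -0.13 to 0.48. For DSCC1 siRNA against controls, EZH2 ran from -0.15 to 0.25, SUZ12 from -0.072 to 0.26, EED from -0.086 to 3.13, MTF2 from -0.64 to 0.11, PHF1 from -0.030 to 0.16, PHF19 from -0.11 to 0.15 and AEBP2 from -0.075 to 0.25. For SEPHS1 siRNA against controls, EZH1 ran from -0.14 to 0.17, EZH2 from -0.12 to 0.27, SUZ12 from -0.094 to 0.23, PHF1 from -0.21 to 0.17 and AEBP2 from -0.17 to 0.60. For SALL4 against VRTN, JARID2 ran from -0.23 to 0.076. For DSCC1 against SEPHS1, PHF1 ran from -0.087 to 0.29. For Control against Luciferase, JARID2 ran from -0.096 to 0.16. The log2 difference in EZH2 to EZH1 ratio ran under SALL4 siRNA from -0.036 to 0.20 and under SEPHS1 siRNA from -0.16 to 0.14. Over all genes leaving out 1 library moved the calls to 275 to 924 for SALL4, 135 to 271 for VRTN, 2 to 98 for DSCC1 and 135 to 472 for SEPHS1 siRNA. Without a filter they were 847, 397, 99 and 516, with DESeq2 814, 392, 47 and 519, with Luciferase alone 236, 89, 2 and 128, with Control alone 280.0, 95, 2 and 103, and with only the groups compared 349, 176, 37 and 198.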
